A study of Drosophila melanogaster with 62 samples.

Results

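Nejire is the only CBP family protein of Drosophila melanogaster, and its knockdown was examined in stage 5 embryos by total RNA sequencing. The comparison holds 6 of the 62 libraries of the series, chosen by their titles: 3 of Nejire knockdown embryos and 3 of control embryos, all at stage 5, among 56 total RNA libraries. Stage 5 is the cellular blastoderm, when the embryo's own genome is widely transcribed, and stage 2, used below as a second time, is an early cleavage stage that runs on RNA loaded by the mother. Each total RNA library came from 20 embryos sorted by hand. The library names give the Nejire knockdown as the cross NI715xN174 and the control knockdown as T180xN174, so the groups share the parent line N174 and differ in the other one, and knockdown and line cannot be told apart. The labels spell out neither the driver nor the hairpin nor the age of the embryos in hours.

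CBP is a large coactivator with a lysine acetyltransferase domain. It is recruited by many transcription factors to enhancers and promoters, and acetylates histones there, on the tail of H3 among other sites. In the fly embryo the zygotic genome is switched on while maternal RNA is being cleared, first for a few short genes of the syncytial nuclei and then for the patterning genes that divide the blastoderm along its axes. The comparison asks which of these transcripts depend on Nejire.

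The targeted gene was examined first. nej (FBgn0261617, X, 9665442 to 9687066, minus strand, dm6) was measured at 266, 183 and 343 normalised CPM (counts per M counts of the library, scaled by TMM) in the 3 Nejire knockdown libraries, against 1648, 720 and 713 CPM in the 3 control libraries. Every knockdown library lay below every control library, and control replicate 1 held far more nej than the other 2 controls. The log2 fold change was -1.96 with a standard error of 0.32 (adjusted p = 0.00012, edgeR quasi-likelihood test with Benjamini-Hochberg adjustment over all genes tested, as for every adjusted p below). On a scale common to all total RNA libraries, nej ran from 184 to 348 CPM in the Nejire knockdown, but also from 292 to 451 CPM in the Gcn5 knockdown and from 364 to 576 CPM in the HDAC1 knockdown, against 707 to 1650 CPM in the controls. At stage 2, in other libraries of the same cross, nej was lower by a similar amount, at -1.78 (adjusted p = 0.00022).

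Total counts ran from 5.42 to 11.6 M in the Nejire knockdown libraries and from 2.50 to 8.37 M in the controls. Markers of follicle cells, yolk, muscle, haemocytes, fat body and testis were low in both groups. The 16 follicle cell and eggshell markers summed to 0.759 to 1.43 CPM in the knockdown libraries and 0.185 to 1.56 CPM in controls, with 4 of them at 0 counts, and the 3 yolk protein genes summed to 0.38 to 1.10 and 0.782 to 1.29 CPM. The 9 muscle markers summed to 14.3 to 33.3 CPM in the knockdown and 6.68 to 13.1 CPM in controls, with 1 at 0 counts and a rise of sls (1.37), and the 7 haemocyte and fat body markers to 1.52 to 4.10 and 0.923 to 2.87 CPM, with 2 at 0 counts and a rise of Ppn (3.24). The 10 testis markers summed to 13.5 to 20.9 CPM in the knockdown and 19 to 22.9 CPM in controls. The 8 late neural and glial markers summed to more, 87.5 to 114 CPM in the knockdown and 171 to 212 CPM in controls. Only 3 of them were tested, and elav (-2.09) and scrt (-2.80) fell. Of 5 cellular blastoderm markers, slam and halo fell. Their list summed to 1950 to 3600 CPM in the knockdown and 4900 to 7630 CPM in controls.

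To place the libraries on the maternal to zygotic handover, genes were sorted into classes by the batch1 controls, another set of control embryos. Their library names give the same cross, but some read CtrlAc-KD and the rest Ctrl-KD, as the main controls do. The batch1 controls also serve below, for single genes, as a second reference chosen after seeing the data. Zygotic genes had under 1 CPM at stage 2 and a log2 rise of at least 3 by stage 5, cleared genes fell by at least 1 on the log2 scale, and stable genes changed by less than 0.5. Zygotic genes took 1.60%, 1.02% and 1.38% of the counts of the 3 Nejire knockdown libraries, against 4.37%, 5.20% and 5.19% in the 3 controls. All 3 knockdown libraries lay below all 3 controls, and their mean of 1.33% ± 0.293 compares with 4.92% ± 0.476 in controls (SD, n = 3 each; an exact permutation test of 3 against 3 cannot go below 0.10). Cleared genes took 12.4%, 14.6% and 12.9% in the knockdown and 12.2%, 8.77% and 9.61% in controls. Here the groups were close to overlapping, and control replicate 1 held nearly as much maternal RNA as Nejire replicate 1. These 2 libraries still differed in their zygotic share, at 1.60% in the knockdown and 4.37% in the control. The batch1 controls, which define the classes, held 6.93% to 7.47% zygotic and 6.44% to 6.68% cleared RNA at stage 5. The Gcn5, HDAC1 and HDAC3 knockdowns held 5.65% to 6.72% and 6.52% to 8.22%. In both shares the main controls lay between these libraries and the Nejire knockdown. The higher share of cleared RNA in the knockdown, and the place of the main controls, stand beside every result below, and their part in them was not tested. At stage 2 the zygotic share was 0.016% to 0.0314% in Nejire knockdown and 0.0116% to 0.0145% in control.

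**Figure D1:**
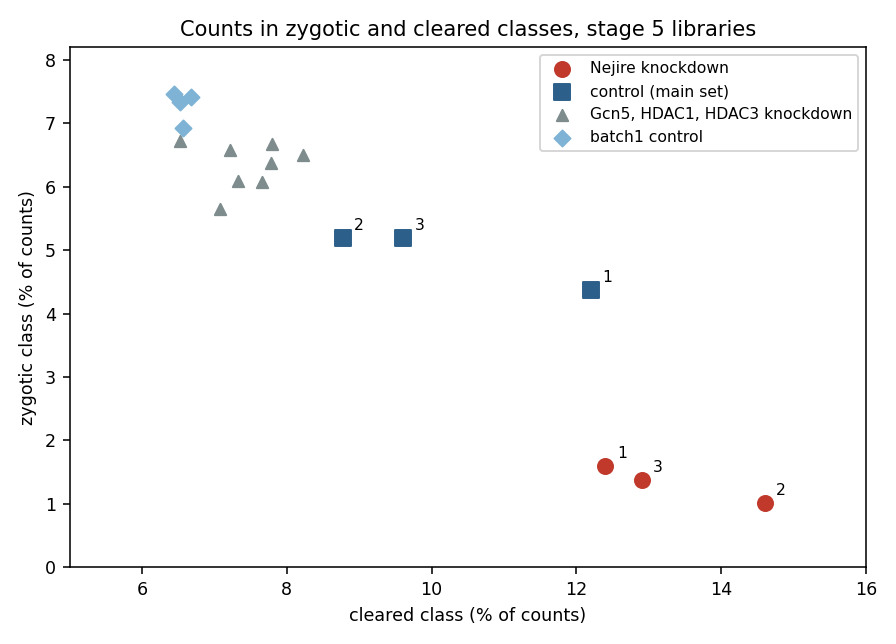
Each point is a stage 5 library, by the percent of its counts in genes of the cleared class (horizontal) and of the zygotic class (vertical), with groups in the legend. The Nejire knockdown libraries sit at 1.02% to 1.60% for zygotic genes, below the controls at 4.37% to 5.20% and the other knockdowns at 5.65% to 6.72%.

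Of 8236 genes tested, 1800 (21.9%) were lower and 1324 (16.1%) higher in Nejire knockdown than in control, so 42.4% of the calls were rises. These 2 shares, 21.9% and 16.1%, stand beside every list count below. The falls were the larger changes. At least 2-fold, 1156 genes (14%) were lower and 247 (3.0%) higher. The split depends on the scale: when the libraries were scaled to the stable class, the median log2 change of all genes moved from 0.01 to -0.11, 2174 genes were lower and 786 higher, and 26.6% of the calls were rises. Small rises are therefore read below with that shift beside them. In bulk embryos, fewer cells that express a gene and less RNA per cell cannot be told apart.

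**Figure D2:**
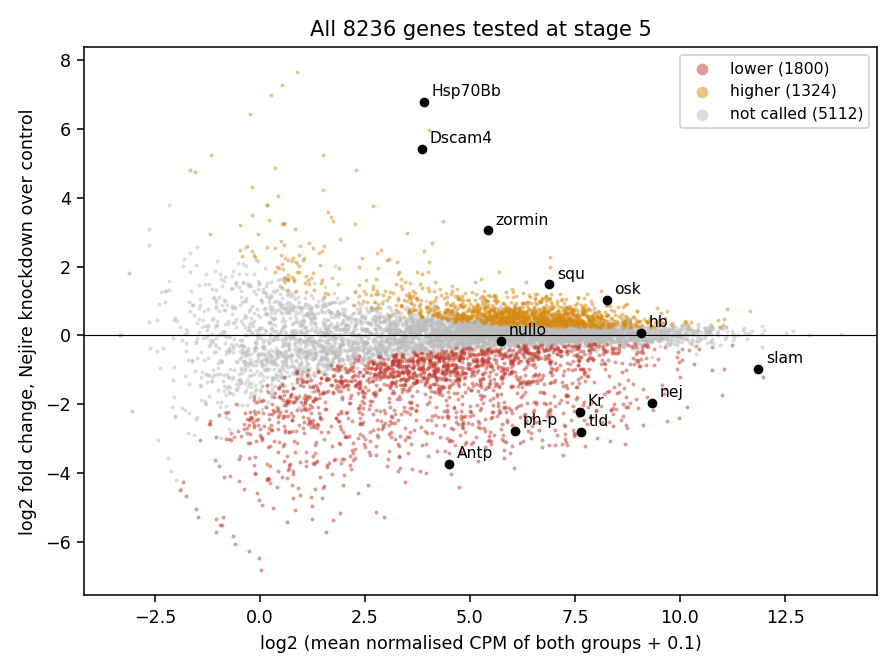
Each point is a gene tested at stage 5, by its mean level (log2 CPM) and its log2 fold change in Nejire knockdown against control, with called genes coloured. Called falls reach below -5 and are spread over the whole range of levels, and called rises are mostly under 1.

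The segmentation cascade was lower from the gap genes on. Of 16 gap and head genes 12 fell and none rose, with a median log2 change of -1.44 against 0.01 over all genes tested. Kr (2R, 25226611 to 25231394, plus strand), the zinc finger gap factor of the central trunk, had 72.5, 64.7 and 69.4 CPM in Nejire knockdown, against 329, 354 and 288 CPM in control (-2.23, standard error 0.10, adjusted p = 2e-11). The groups were far apart, and the spread within each was small. nub, a POU domain factor, was at 10.7, 14.2 and 12.3 CPM in the knockdown and 86.3, 124 and 101 CPM in control (-3.09). kni (-1.33), gt (-0.94) and tll (-1.64), repressors of the posterior and of both ends, and oc (-1.39), the orthodenticle homeobox gene of the head, also fell. The exceptions were hb, btd, cnc and cad. hb, the anterior gap gene with a maternal and a zygotic transcript, was measured at 579, 501 and 581 CPM in the knockdown and 584, 555 and 435 CPM in control (0.07, adjusted p = 0.612). Its groups overlapped, and with the batch1 controls it was called higher (1.17, adjusted p = 5.33e-07). btd, a head gap gene, had a log2 change of -0.21 and an adjusted p of 0.429, with overlapping groups. cad, a posterior homeobox gene with much maternal RNA, was not called (0.43, adjusted p = 0.123), but without control replicate 1 it was, at 0.81 (adjusted p = 6.63e-04).

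All 9 pair-rule genes fell, with a median of -2.31. These encode the transcription factors that first divide the trunk into periodic stripes. opa (3R, 4852813 to 4869979, plus strand), a zinc finger factor that acts late in the blastoderm, had 39.9, 17.97 and 36.2 CPM in the knockdown and 259, 222 and 230 CPM in control (-2.89, standard error 0.22, adjusted p = 9.1e-09). eve, a homeobox repressor, had 10.4, 5.11 and 8.61 CPM in the knockdown and 48.3, 49.6 and 29.3 CPM in control (-2.38). In both genes each knockdown library lay below each control, and Nejire replicate 2 was the lowest of the 6. prd (-2.53), slp2 (-2.44), odd (-2.31), ftz (-2.25), hry (-2.17) and run (-2.03) fell by similar amounts, and slp1 by least (-1.40).

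Segment polarity genes hold the borders of the segments through Wingless and Hedgehog signals. Of 15 tested 9 fell and none rose, against 21.9% falls and 16.1% rises over all genes tested. The ligands wg (-2.51) and hh (-2.80), the Hedgehog receptor ptc (-2.64), the transcription factor ci (-2.13), the Wingless receptor fz2 (-1.93) and its feedback antagonist nkd (-2.26) were among them. ci had 161, 108 and 128 CPM in the knockdown and 549, 590 and 604 CPM in control, with no overlap. smo, which relays the Hedgehog signal, fell by 0.90 on the log2 scale, and arm, the fly beta-catenin, was at -0.20 without passing the test. en, the homeobox gene of posterior compartments, was low in every library, at 0.890, 3.03 and 1.76 CPM in the knockdown and 1.85, 2.66 and 7.52 CPM in control. Its groups overlapped and the difference was not called (-0.98, adjusted p = 0.123), but it passed without Nejire replicate 2 (-1.47, adjusted p = 0.041) or without control replicate 1 (-1.35, adjusted p = 0.0372).

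All 7 homeotic genes tested fell, with a median of -2.95. They encode the homeobox factors that give segments their identity. Antp, whose counts are uncertain because 0.501 of its exon length overlaps another gene, had 2.14, 3.97 and 3.87 CPM in the knockdown and 46.1, 34.9 and 44.7 CPM in control (-3.73, standard error 0.20). Dfd had 1.69, 2.27 and 2.11 CPM in the knockdown and 19.2, 22.6 and 20.6 CPM in control (-3.40). Neither gene had overlapping groups. Ubx (-2.95), abd-A (-2.85) and pb (-2.57) fell too. Scr fell by 2.38 on the log2 scale, with the value moving to -1.64 without Nejire replicate 1 and to -2.98 without Nejire replicate 2. Abd-B was counted 3 times over the knockdown libraries and 43 times over the controls, a ratio of control to knockdown of 20.1 (95% interval 6.44 to 101, counting error only).

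**Figure D3:**
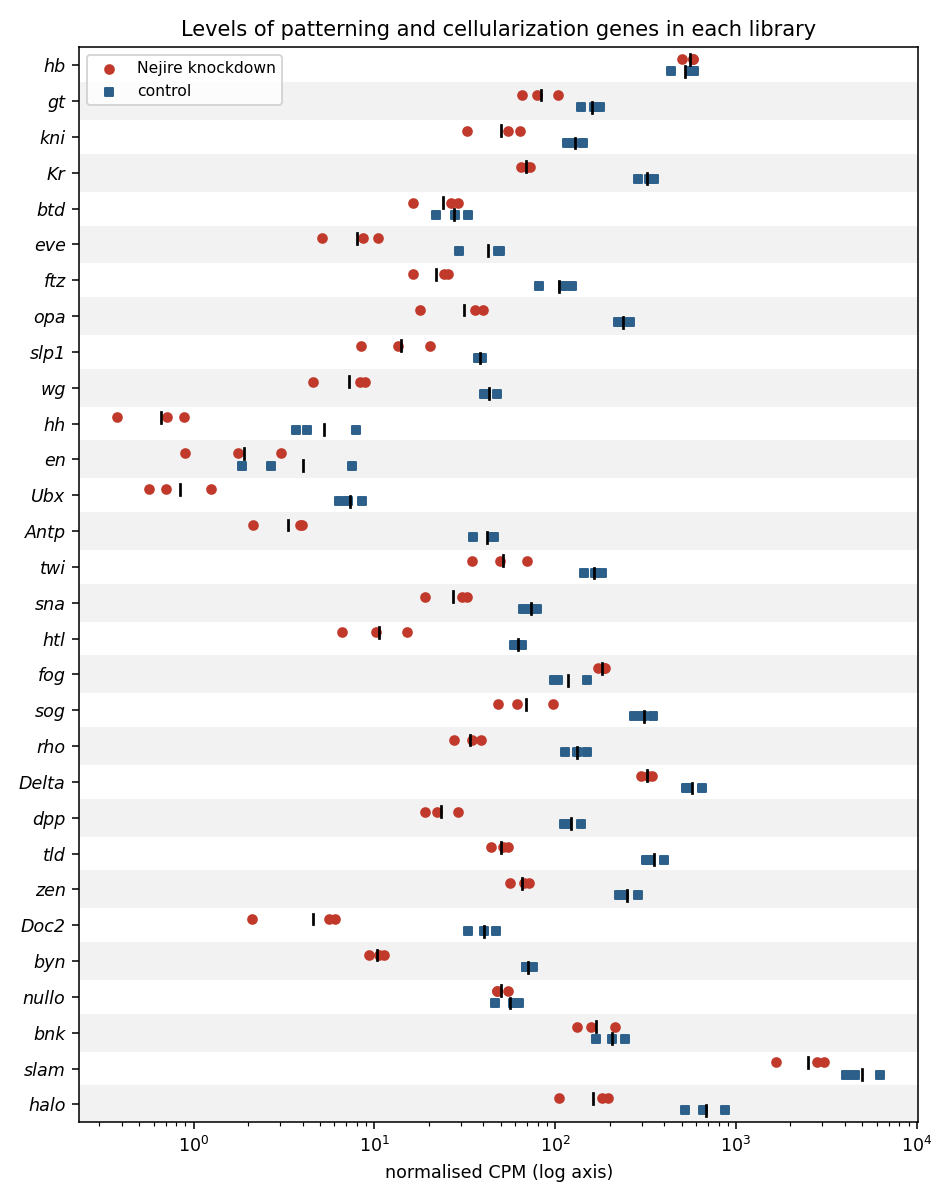
Level of patterning genes in each stage 5 library (CPM, log scale), with the Nejire knockdown points above the control points in the row of each gene and a bar at the mean. The points of both groups are apart for genes such as Kr, eve and Antp and mixed for hb.

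Along the dorsal-ventral axis, genes of every domain were lower. Mesoderm genes of the ventral side fell in 13 of 15 cases, with a median of -1.79. The master regulator twi, a basic helix-loop-helix activator, had 69.7, 34.4 and 49.4 CPM in the knockdown and 145, 181 and 166 CPM in control (-1.66), and sna, the zinc finger repressor of the ventral furrow, had 30.6, 19.1 and 32.3 CPM in the knockdown and 73.2, 79.7 and 66.1 CPM in control (-1.41). Both were apart between groups. Of the FGF pathway that spreads the mesoderm, the ligands ths (-2.81) and pyr (-1.66), the receptor htl (-2.48) and its adaptor stumps (-2.07) all fell. The netrin NetA (-2.71), the cadherin CadN (-2.52) and the transporter Mdr49 (-2.60) fell as well. Mef2, a muscle factor with maternal RNA, was near the threshold (-0.60, adjusted p = 0.0474), and the call was lost without Nejire replicate 1 or 3 and without control replicate 1 or 3, with values of -0.27 to -0.64. tin, the NK homeobox factor of the mesoderm, was not called (-1.19, adjusted p = 0.0572), but passed without Nejire replicate 2 (-1.86) or control replicate 1 (-1.41).

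Genes that drive the folding of the furrow split. The transmembrane protein gene T48 (-1.08), the receptor gene mthl1 (-1.19) and Traf4 (-2.52), a signalling adaptor of the mesoderm, fell. T48 had 20.5, 20.1 and 23.2 CPM in the knockdown and 46.7, 40.9 and 47.5 CPM in control, with no overlap. The secreted ligand fog and the G alpha protein cta rose, by 0.63 and 0.81 on the log2 scale. fog had 188, 185 and 173 CPM in the knockdown and 150, 104 and 97.8 CPM in control, also with no overlap.

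In the neuroectoderm 15 of 17 genes fell, with a median of -1.64. They include the EGF pathway, with the ligands spi (-1.34) and vn (-1.65), the protease rho that releases spi (-1.95), the receptor Egfr (-2.10) and the feedback inhibitor aos (-2.70). Egfr had 147, 95.7 and 139 CPM in the knockdown and 547, 583 and 506 CPM in control, and the groups were far apart. The column determinants vnd (-1.07) and ind (-1.59), the SoxB factor SoxN (-2.38) and the proneural genes sc (-2.09), l(1)sc (-1.46) and ac (-1.07) fell. sim, the midline determinant, had 1.96, 2.46 and 1.58 CPM in the knockdown and 2.21, 3.55 and 4.36 CPM in control and was not called (-0.70, adjusted p = 0.122). It passed without control replicate 1 (-0.96, adjusted p = 0.0491).

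In the Notch pathway the ligand Delta fell moderately, at 298, 328 and 343 CPM in the knockdown and 652, 536 and 531 CPM in control (-0.83, adjusted p = 1.4e-05). neur, the ubiquitin ligase that makes Delta active (-1.64), the Bearded family genes that restrain neur, such as Ocho (-3.05), BobA (-1.58), Tom (-1.37) and Brd (-1.07), and the Enhancer of split genes E(spl)m4-BFM (-2.20), E(spl)m5-HLH (-2.21) and E(spl)m7-HLH (-1.44) fell. E(spl)m8-HLH (-1.24, adjusted p = 0.0716) and E(spl)malpha-BFM (-0.71, adjusted p = 0.146) did not pass. The receptor N (-0.29) and the DNA-binding factor Su(H) (-0.28) did not pass the test. In all, 9 of 17 genes fell and none rose, against 21.9% falls and 16.1% rises over all genes tested. Without control replicate 1, 1 rose.

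Dpp signalling patterns the dorsal side. Its ligands dpp (-2.36), scw (-2.82) and gbb (-1.41), the extracellular binding proteins sog (-2.14), tsg (-1.82) and cv-2 (-3.07), and the protease tld fell. With the batch1 controls the call of scw was lost (-0.35, adjusted p = 0.28) and tsg was at -0.89. tld (3R, 24749731 to 24753510, plus strand), which cleaves sog, had 51.4, 44.1 and 54.5 CPM in the knockdown and 333, 400 and 318 CPM in control (-2.81, standard error 0.13, adjusted p = 2.1e-11). The groups were far apart. Among the receptors tkv fell by 0.51 on the log2 scale, sax rose by 0.60, and put (0.05) and the transducer Mad (0.07) did not pass. The transcription factors shn (-2.46) and brk (-1.64) fell. Over the pathway 11 of 16 genes fell and 1 rose, against 21.9% falls and 16.1% rises over all genes tested.

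The targets of this gradient in the dorsal ectoderm and amnioserosa fell in 13 of 14 cases, with a median of -2.47. zen, the homeobox gene of the amnioserosa, had 67.2, 56.4 and 71.7 CPM in the knockdown and 224, 286 and 241 CPM in control (-1.94), but with the batch1 controls the call was lost (-0.32, adjusted p = 0.0837). The T-box genes Doc1 (-2.93), Doc2 (-3.07) and Doc3 (-3.06), the GATA factor pnr (-2.34) and its cofactor ush (-2.35), the LIM homeobox gene tup (-2.03) and net (-3.10) fell. The pnr value moved to -2.94 without Nejire replicate 2. Ance (-3.03), a peptidase, and egr (-2.59), the fly TNF, fell as well. C15 had a log2 change of -1.82 and did not pass.

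Torso signalling sets the poles of the embryo. The receptor kinase tor (0.44), the phosphatase csw (0.59) and the ERK kinase rl (0.74) rose, the ligand trk (1.02, adjusted p = 0.244) and the kinases Raf (0.23) and Dsor1 (0.19) did not pass, and the targets tll (-1.64), hkb (-1.86), byn (-2.76) and bowl (-0.94) fell. byn, the T-box gene of the hindgut, had 11.3, 9.27 and 10.5 CPM in the knockdown and 75.5, 68.8 and 68.9 CPM in control, and the groups were far apart. The call of tor was lost with stable class scaling (0.32, adjusted p = 0.0506). The rises were 3 of 11 genes, against 16.1% over all genes tested, and 5 without control replicate 1. Gut primordium genes, including the GATA factor srp (-2.54) and the forkhead gene fkh (-2.38), fell in 7 of 8 cases, with a median of -2.12.

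The short genes that are transcribed before most others did not behave alike. Of 13 early zygotic genes 10 fell, with a median of -1.79, and 3 did not pass, against 21.9% falls over all genes tested. The 3 are nullo, bnk and sisA. nullo (X, 7049476 to 7050321, plus strand), which stabilises the furrow canals of cellularization, had 54.6, 47.7 and 47.6 CPM in the knockdown and 62.7, 46.3 and 58.6 CPM in control (-0.15, adjusted p = 0.66). bnk, which restrains the same contractile network, had 158, 131 and 213 CPM in the knockdown and 206, 244 and 168 CPM in control (-0.31, adjusted p = 0.358). sisA, an X-linked signal of sex, had 129, 57.9 and 87.5 CPM in the knockdown and 71.4, 103 and 85.9 CPM in control (0.08, adjusted p = 0.773). All 3 overlapped between groups. halo, a transport regulator of the same early set, had 196, 105 and 182 CPM in the knockdown and 519, 867 and 657 CPM in control (-2.08, adjusted p = 4.8e-06), with no overlap. Z600, an inhibitor of mitosis (-1.99), and term (-1.96) fell too. The levels of nullo and bnk change quickly within stage 5, and nullo was at 1.58 CPM on average in the batch1 controls, where the same comparison gave 4.66 (adjusted p = 1.7e-08). Age within the stage and the knockdown cannot be told apart for these genes, nor for the other genes of this comparison, since the labels give no age within the stage.

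Cellularization genes fell in 10 of 21 cases and rose in 1, against 21.9% falls and 16.1% rises over all genes tested. slam, which is needed for membrane to be inserted at the furrows, had 3075, 1655 and 2801 CPM in the knockdown and 4527, 6264 and 4051 CPM in control (-0.98, adjusted p = 0.0038). The groups were apart, with Nejire replicate 2 the lowest, but the call was lost with the batch1 controls (-0.27, adjusted p = 0.269). The apical polarity genes crb (-1.54) and sdt (-2.75), the cadherin shg (-0.78) and btsz (-2.41), a synaptotagmin-like protein of epithelia, fell. Cytoskeletal genes such as dia (0.07), pnut (-0.12) and scra (-0.06), did not pass. The rise, of Septin1 by 0.25 on the log2 scale, was lost without Nejire replicate 2 or 3 and without control replicate 1 or 3, with values of 0.20 to 0.24, without a filter or with the 2 groups fitted alone (0.24 in both), with stable class scaling (0.12, adjusted p = 0.251) and with the batch1 controls (0.11, adjusted p = 0.236).

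Among the genes that count X chromosomes, the activators sc (-2.09), run (-2.03) and upd1 (-1.79) fell, as did the repressor dpn (-2.25), whose counts are uncertain because 0.593 of its exon length overlaps another gene. upd1 was at -0.68 with the batch1 controls. Sxl, the switch gene of sex, had 133, 40.7 and 46.7 CPM in the knockdown and 438, 441 and 302 CPM in control (-2.39, adjusted p = 1.5e-05). Nejire replicate 1 was well above the other 2 knockdown libraries, and without it the value was -3.17. Of the dosage compensation genes, msl-2 (-1.40), mle (-0.44) and the noncoding lncRNA:roX1 (-0.70) fell, and msl-3 (0.53), Clamp (0.43) and msl-1 (0.35) rose. The rise of msl-1 was lost without Nejire replicate 1, 2 or 3, or without control replicate 2 or 3, with the 2 groups fitted alone, and with stable class scaling (0.22, adjusted p = 0.206).

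Genes of the cell surface fell as well. Of 32 axon guidance and adhesion genes 23 fell and 1 rose, with a median of -1.53, and 2 rose without Nejire replicate 2. Over all genes tested 21.9% fell and 16.1% rose. The immunoglobulin paralogues kirre (-3.39) and rst (-3.35), the netrin receptor unc-5 (-3.23), the Slit ligand sli (-2.68) and its receptor robo2 (-2.46), and the leucine-rich repeat protein trn (-2.76) were among them. The Toll receptors Tollo (-2.15) and Toll-6 (-1.40), which orient cells of the extending germ band, fell, as did Toll-7 (-1.66). Tollo had 96.0, 91.8 and 94.4 CPM in the knockdown and 476, 388 and 384 CPM in control, with no overlap. Of 6 innexins, which form gap junctions, ogre (-2.17), Inx3 (-2.07), Inx7 (-2.03) and Inx2 (-0.77) fell and the germline innexin zpg rose (0.49). Of the ecdysteroid genes, the Halloween enzymes phtm (-2.69), dib (-2.46), spo (-2.01) and sad (-0.94), which make the hormone, and Cyp18a1 (-4.33), which inactivates it, fell. dib had 22.1, 14 and 16.7 CPM in the knockdown and 80.4, 101 and 118 CPM in control. Their receptor genes EcR (0.14) and usp (0.35) did not pass. In JAK/STAT signalling the ligands upd1 (-1.79) and upd2 (-1.94) and the feedback inhibitor Socs36E (-1.95) fell, and the receptor dome (-0.21), the kinase hop (-0.13) and Stat92E (0.13) did not pass. Without Nejire replicate 1 upd2 was at -2.82.

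The largest falls were of zygotic genes that were nearly absent from the knockdown libraries. 5-HT2A, a serotonin receptor, had 2.05, 3.78 and 1.58 CPM in Nejire knockdown and 50.9, 48.8 and 53.1 CPM in control (-4.41, standard error 0.31, adjusted p = 4.2e-09). Cyp312a1, a cytochrome P450, had 0.178, 0.378 and 0.703 CPM in the knockdown and 12.7, 17 and 14.7 CPM in control (-5.27). Art2, an arginine methyltransferase, had 0.712, 0.757 and 1.93 CPM in the knockdown and 18.6, 19.8 and 23.8 CPM in control (-4.25). In each of the 3 the groups were far apart, but the ranking admitted only genes whose libraries did not overlap between groups. Egfrap was counted 2 times over the knockdown libraries and 88 times over the controls, a ratio of control to knockdown of 61.7 (95% interval 16.6 to 518, counting error only). Alp1, an alkaline phosphatase, was counted 3 and 95 times, a ratio of 44.4 (14.8 to 219). Cyp18a1, the adenosine deaminase Adgf-A2 (-4.44), the zinc transporter Zip71B (-4.04), Esp (-4.35) and the immunoglobulin protein DIP-eta (-4.71) complete the 10 largest falls. DIP-eta moved to -3.80 without Nejire replicate 1 and to -6.08 without Nejire replicate 3. Esp was at -5.25 without Nejire replicate 1.

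Among regulators of chromatin and transcription, Polycomb and Trithorax genes fell in 12 of 26 cases and none rose (1 rose without Nejire replicate 2), against 21.9% falls over all genes tested. ph-p (X, 2126210 to 2138371, minus strand), a core subunit of the Polycomb complex PRC1, had 21.1, 10.8 and 18.3 CPM in the knockdown and 137, 110 and 107 CPM in control (-2.78, standard error 0.21, adjusted p = 7.2e-09). The groups were far apart. Pc (-1.26), ph-d (-1.25), Psc (-0.79) and Su(z)2 (-1.32) of PRC1, E(z) (-1.54) and Su(z)12 (-1.57) of the H3K27 methyltransferase PRC2, and caly (-1.32) and Asx (-0.61) of the H2A deubiquitinase fell, as did the trithorax methyltransferases trx (-1.28) and ash1 (-0.52). Sce, the ubiquitin ligase of PRC1 (0.30), and esc of PRC2 (-0.08) did not pass.

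Mediator and elongation genes fell in 11 of 35 cases and rose in 3, against 21.9% and 16.1% over all genes tested. MED17 (-1.49), the kinase module genes Cdk8 (-1.21) and kto (-1.11), the P-TEFb cyclin CycT (-1.46) and Nelf-A (-1.29) fell. The partners CycC (0.04), skd (0.06) and Cdk9 (0.08) did not pass. CycT had 77.6, 73.4 and 84.9 CPM in the knockdown and 286, 178 and 186 CPM in control, with no overlap. The rises numbered 1 when scaled to the stable class, without Nejire replicate 2 or without control replicate 2.

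Gcn5, the acetyltransferase of another knockdown in the series, was not called. It had 226, 227 and 225 CPM in the knockdown and 228, 268 and 211 CPM in control (-0.07, adjusted p = 0.64), with overlap. Of 30 acetyltransferases and CBP partners, 5 fell, among them nej itself, trx, kto, ash1 and Elp3 (-0.65), and 7 rose, among them Hat1 (0.82), Naa60 (0.80), Ada2a (0.74) and the CREB family gene CrebA (1.29), against 21.9% falls and 16.1% rises over all genes tested. With stable class scaling 10 fell and 4 rose, and without control replicate 1 the rises numbered 11. The deacetylase HDAC1 was at -0.08 (adjusted p = 0.534). Of 18 deacetylases and corepressors, Sirt6 (-1.12), Sirt4 (-1.07) and Sin3A (-0.49) fell, a share below the 21.9% of all genes tested, with 7 falls under stable class scaling, 6 without control replicate 2 and 5 without control replicate 3. The exons of Sirt4 overlap another gene over 0.781 of their length, so its counts are uncertain.

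zld, the pioneer factor of zygotic genome activation, had 427, 374 and 618 CPM in the knockdown and 1321, 649 and 603 CPM in control. Nejire replicate 3 lay above control replicate 3, so the groups overlapped. The log2 change was -0.86 (adjusted p = 0.0149), but the call was lost without Nejire replicate 1 (adjusted p = 0.0513), without Nejire replicate 2 (adjusted p = 0.0701) or without control replicate 1 (-0.44, adjusted p = 0.0936). Of 14 pioneer and chromatin activation factors 4 fell, zld, opa, psq (-0.34) and Dsp1 (-0.30), and Clamp rose. Over all genes tested 21.9% fell and 16.1% rose. The falls numbered 9 with stable class scaling and 1 without Nejire replicate 2.

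Maternal transcripts were called higher in part of each list. Summed levels of the egg activation list overlapped, at 12200 to 13600 CPM in the knockdown and 8670 to 13600 CPM in controls. Those of the maternal axis list nearly met, at 6180 to 6380 and 4650 to 6100 CPM. Those of the germ plasm and piRNA list were apart, at 2900 to 3320 and 1850 to 2530 CPM. Rises made up 16.1% of all genes tested and 26.3% of the cleared class, and both shares stand beside the list counts that follow. Of 22 maternal axis genes 7 rose and none fell, with a median of 0.41. bcd, the anterior morphogen, had 147, 181 and 156 CPM in the knockdown and 128, 63.9 and 64.9 CPM in control (0.90, adjusted p = 0.0113). The groups were apart, with control replicate 1 close to the knockdown libraries, and the call was lost without control replicate 2 (0.71, adjusted p = 0.0618). The rises numbered 11 without control replicate 1 and 4 with stable class scaling. Of 20 egg activation genes and regulators of maternal RNA 7 rose, among them the Cdc25 phosphatase twe (0.89), the thioredoxin dhd (0.83) and the RNA helicase me31B (0.49). smg, which drives the clearance of maternal RNA, had 2539, 3171 and 2766 CPM in the knockdown and 2421, 1236 and 1269 CPM in control (0.78, adjusted p = 0.0141). Control replicate 1 again lay near the knockdown libraries. The smg call was lost without Nejire replicate 2, control replicate 2 or control replicate 3, with values of 0.61 to 0.69, and the list's rises numbered 11 without control replicate 1 and 3 without control replicate 2.

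Germ plasm and piRNA genes rose in 10 of 21 cases and fell in 2, against 16.1% rises over all genes tested and 26.3% in the cleared class. squ, a piRNA pathway gene, had 159, 193 and 171 CPM in the knockdown and 72.7, 57.98 and 55.8 CPM in control (1.48, adjusted p = 9.3e-07), and pgc, which silences transcription in pole cells, had 88.7, 93.5 and 91.7 CPM in the knockdown and 41.1, 34 and 39.99 CPM in control (1.26). Both were apart between groups. osk, the organiser of germ plasm (1.02), has 0.841 of its exon length overlapped by another gene, so its counts are uncertain. nanos rose by 0.55 on the log2 scale, and the call was lost with stable class scaling and without Nejire replicate 2 or control replicate 2 or 3 (0.40 to 0.50). The list's rises numbered 6 with stable class scaling or without Nejire replicate 2. The 5 pole cell markers, which share genes with this list, summed to 789 to 1050 CPM in the knockdown and 353 to 721 CPM in control, and 4 of the 5 rose. The part of pole cell number in these rises was not tested.

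Genes that set the end of the syncytial divisions moved in both directions. The mitotic inhibitors Z600 (-1.99) and trbl (-1.40) and the S-phase regulators CycE (-0.86) and E2f1 (-0.72) fell. The Cdc25 phosphatases twe (0.89) and stg (0.79), the checkpoint kinases grp (0.76) and lok (0.56), Wee1 (0.64), CycB (0.71) and rux (1.18) rose. The 21 genes gave 6 falls and 8 rises, against 21.9% falls and 16.1% rises over all genes tested. CycE had 383, 460 and 413 CPM in the knockdown and 857, 770 and 641 CPM in control, with no overlap.

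Cell death genes gave 6 falls and 3 rises of 14, against 21.9% falls and 16.1% rises over all genes tested. The proapoptotic genes rpr (-2.66), hid (-1.02) and skl (-1.01) fell, together with the inhibitor of apoptosis Diap1 (-1.39) and the apoptosome gene Dark (-0.67). rpr had 1.42, 2.84 and 2.28 CPM in the knockdown and 12.2, 14.3 and 11.9 CPM in control. p53 rose by 0.63 on the log2 scale (0.50 and adjusted p = 0.0507 without Nejire replicate 3), and the list's rises numbered 1 without that library. Xrp1, a stress factor of the fly, was at 0.05 (adjusted p = 0.874). Of 13 heat shock genes 4 rose and 3 fell, to be read beside the same shares over all genes tested. Hsp26 (1.07), Hsp68 (0.86) and the cochaperone DnaJ-1 (0.83) rose, and the factor Hsf (-0.45) and Hsp23 (-0.79) fell. Hsp70 copies are near-identical, and their counts are uncertain: the copy Hsp70Bb rose by 6.78 on the log2 scale and the copy Hsp70Ba fell by 2.23. The fall of Hsp70Ba was lost without Nejire replicate 1, 2 or 3 and without control replicate 2.

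Proteasome genes moved in both directions, beside 16.1% rises and 21.9% falls over all genes tested. Of 31 tested, 8 rose, 7 of them in the 20S core (Prosbeta7 at 0.37 and Prosbeta2 at 0.33 among them) and the other Rpn5 (0.58), and 7 fell, all in the 19S cap, among them Rpn7 (-1.13), Rpn11 (-1.06) and Rpn2 (-0.83). The difference between core and cap was not tested. The core rises are small beside the shift of scale: 1 rise was left under stable class scaling or with the 2 groups fitted alone, 5 without a filter of low counts, 3 without control replicate 1 and 4 without Nejire replicate 1 or 3. Of 80 ribosomal protein genes 4 rose and none fell, with a median of 0.18, and the rises ran from 0 to 15 when libraries were left out, with 0 without control replicate 1 or without Nejire replicate 1 or 3, 7 without control replicate 2 and 15 without control replicate 3.

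**Figure D4:**
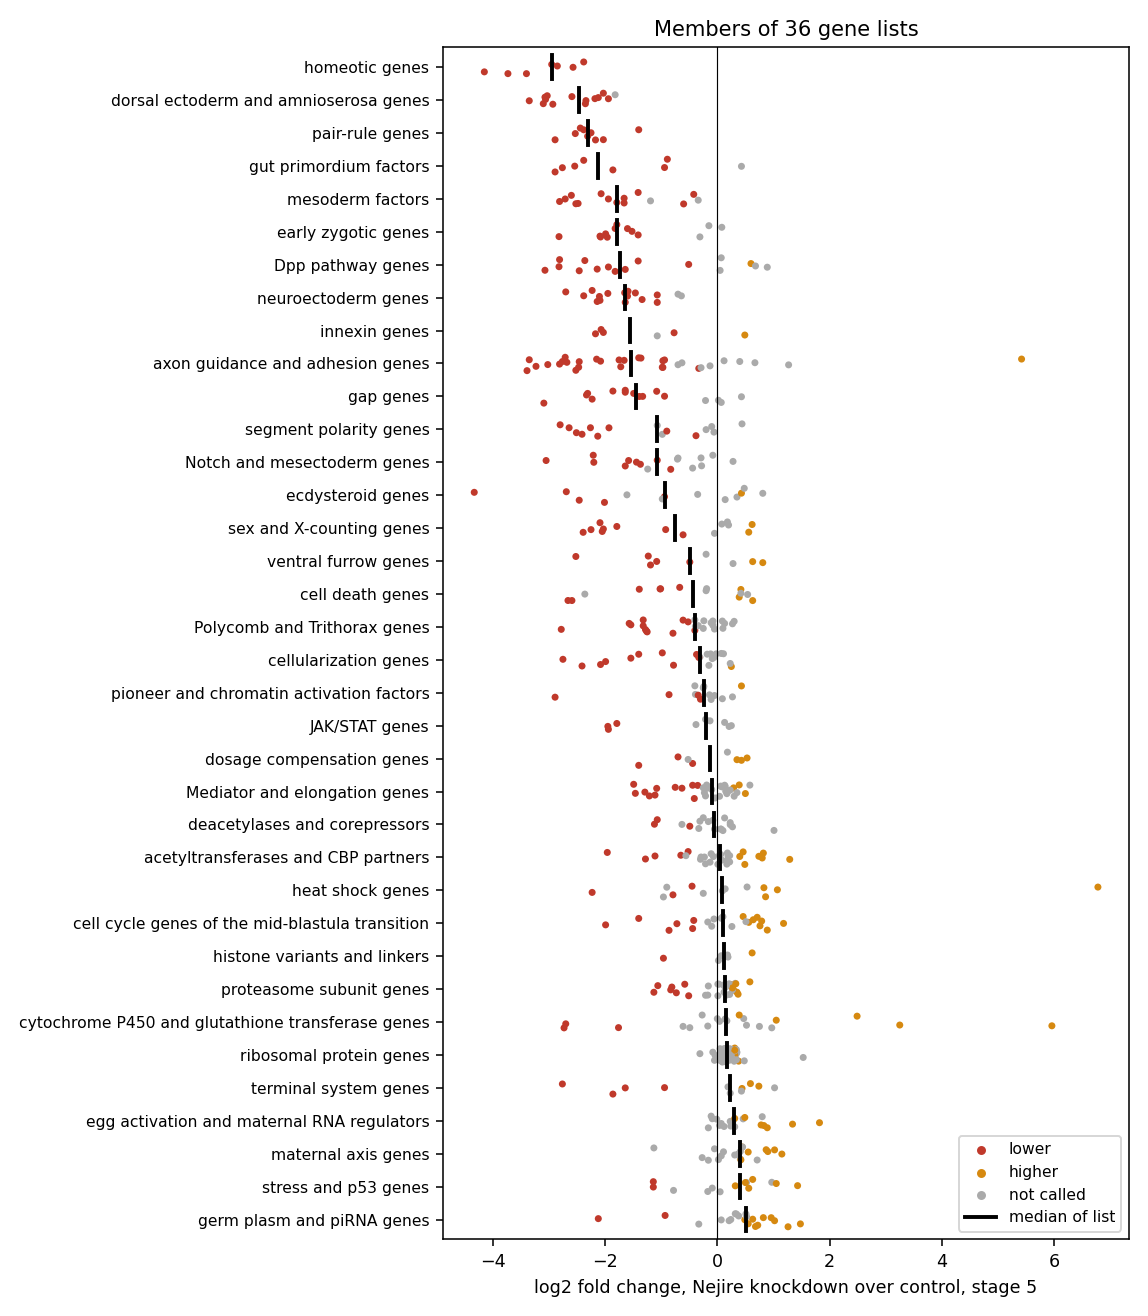
Log2 fold change of every tested member of each gene list at stage 5, Nejire knockdown against control, with 1 row per list and called genes coloured. Lists of zygotic patterning genes lie left of 0, with medians of -1.07 to -2.95 for the pair-rule, segment polarity and homeotic lists, and maternal lists lie slightly right of it.

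The genes that rose most were set against stage 2, where the same cross was sequenced in other libraries and little zygotic RNA is present. At stage 2, 332 of 6916 genes (4.8%) were lower and 368 (5.32%) higher in Nejire knockdown. Of the 184 genes that rose at least 2-fold at stage 5 and were also tested at stage 2, 78 (42.4%) were higher at stage 2 too, which is 21.7% of the 360 stage 2 rises tested at both stages. Of the 515 such falls, 75 (14.6%) were lower at stage 2, or 23.4% of 321. Both stages compare the same lines, so knockdown and line cannot be told apart in these shared calls.

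Several of the largest rises were already present at stage 2. Cyp4p2, a cytochrome P450, had 30.6, 32.0 and 33.6 CPM in the knockdown and 0.369, 0.761 and 0 CPM in control at stage 5 (5.96, adjusted p = 7.1e-10, and 6.90 without control replicate 2). At stage 2 it was counted 363 times in the knockdown and 0 times in control, at least 190.0-fold higher against a floor of 3 counts over the group. Dscam4, an immunoglobulin receptor, had 27.7, 27.8 and 28.5 CPM in the knockdown and 0.738, 0.507 and 0.792 CPM in control at stage 5 (5.42), and was at least 258-fold higher at stage 2 (493 and 0 counts). The knockdown libraries agree within 1 CPM for Dscam4. The groups were far apart for both genes, but the ranking of rises also admitted only genes without overlap. alpha-Est5, a carboxylesterase (3.33 at stage 5 and 2.97 at stage 2), zormin, a muscle protein (3.05 and 5.38), Arc1 (2.98 and 1.97), and GstD3 (2.49 and 1.28) were also higher at both stages. The muscle marker sls was at 1.37 at stage 5, where Nejire replicate 1 and control replicate 1 overlapped, and at 5.83 at stage 2, while Mhc and 6 more of the 9 muscle markers were too low to be tested.

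Others were not called at stage 2. Polr3A, a subunit of RNA polymerase III, had 32.4, 17.97 and 38.3 CPM in the knockdown and 3.69, 5.20 and 5.15 CPM in control at stage 5 (2.67, adjusted p = 2.8e-06), and 0.39 at stage 2 (adjusted p = 0.128). GluRIIB, a glutamate receptor subunit (4.79, and 5.45 without control replicate 1), was too low to be tested at stage 2. DAT, the dopamine transporter, was counted 141 times in the knockdown and 2 times in control at stage 5, a ratio of 50.2 (95% interval 13.7 to 419, counting error only).

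**Figure D5:**
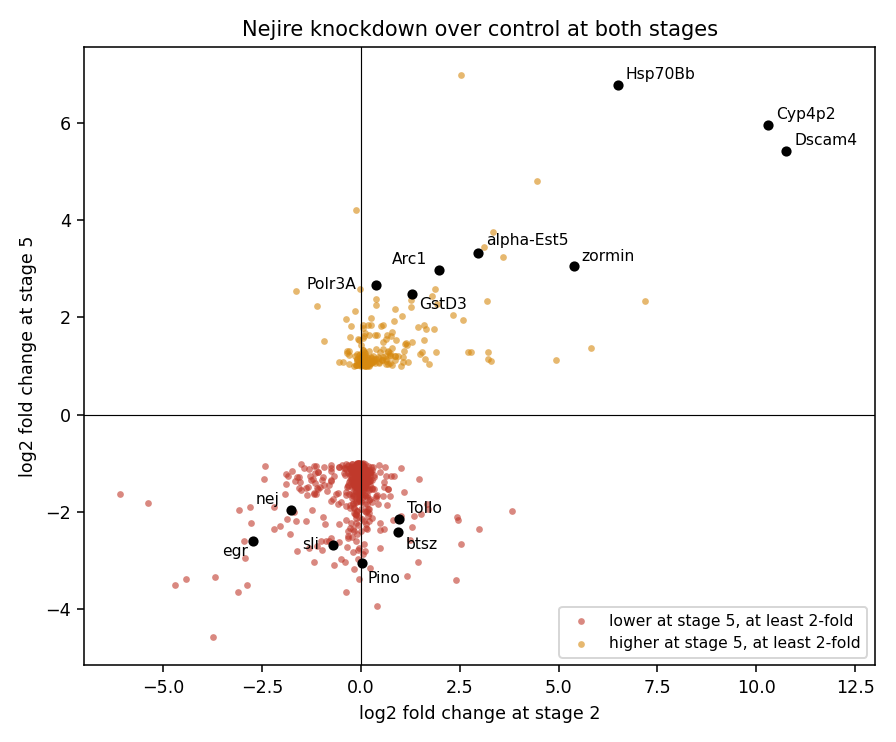
Log2 fold change in Nejire knockdown against control at stage 5 (vertical) and at stage 2 (horizontal) for genes called with at least a 2-fold change at stage 5 and tested at both stages. Falls at stage 5 gather around 0 at stage 2 (median -0.07), and rises at stage 5 have a stage 2 median of 0.34.

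The difference between the stages was also tested as an interaction. Of 8675 genes, 975 (11.2%) had a lower and 770 (8.88%) a higher effect of the knockdown at stage 5 than at stage 2. The split depends on the scale, with 1575 lower and 283 higher effects under stable class scaling, 1460 and 331 with RLE scaling, and 1721 and 402 with DESeq2. Pino, with 18.5, 11.2 and 18.6 CPM in the knockdown and 126, 145 and 138 CPM in control at stage 5, was at -3.06 at stage 5 and 0.02 at stage 2. btsz (-2.41 and 0.93), Tollo (-2.15 and 0.96) and bbg (-2.38 and 0.49) were lower at stage 5 but higher at stage 2, where their RNA is maternal. Maternal RNAs with a rise that was particular to stage 5 by this test include cib, an actin-binding protein (1.56 and -0.07), Evi5 (1.85 and 0.18) and the helicase Mov10 (1.54 and -0.04). Control replicate 1 is again the highest control for them, and without it Evi5 was at 2.75 and Mov10 at 2.22.

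Set against the mean of the Gcn5, HDAC1 and HDAC3 knockdowns at stage 5, each from a cross of N174 with a line of its own (T400, T341 and T103), 2936 of 8236 genes (35.6%) were lower and 2699 (32.8%) higher in Nejire knockdown. These 8 libraries had zygotic shares of 5.65% to 6.72% and cleared shares of 6.52% to 8.22%, against 1.02% to 1.60% and 12.4% to 14.6% in Nejire knockdown, and the part of this in the contrast was not tested. Knockdown and line cannot be told apart here either. All 9 pair-rule and all 7 homeotic genes, 13 of 15 mesoderm genes and 13 of 14 dorsal ectoderm genes were lower than in these knockdowns, and none of the rest of these lists was higher. Other zygotic lists were split, with 12 lower and 3 higher of 16 gap genes, 9 and 3 of 13 early zygotic genes, 9 and 4 of 16 Dpp genes, and 9 and 6 of 21 cellularization genes. Of the maternal axis genes 20 of 22 were higher, as were 18 of 20 egg activation genes and 17 of 21 germ plasm genes. Among single genes, Fs, the fly follistatin, was counted 1 time in Nejire knockdown and 41 times in the main controls. The ratio of these controls to the knockdown was 57.5 (95% interval 9.76 to 2330, counting error only). It does not compare Fs with the other knockdowns. fd19B, a forkhead gene (21.1, 20.6 and 19.5 CPM in the knockdown and 8.67, 4.69 and 9.50 CPM in the main controls), was higher by 5.69 on the log2 scale than in the other knockdowns.

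What the fallen genes share was described by properties that the test did not use. Of 1487 zygotic genes 1265 passed the filter, and 687 of these (54.3%) fell and 32 rose, with a median of -1.46. A fitted fall of more than 4-fold was found in 459, and of more than 8-fold in 177. Maternal-zygotic genes, which have maternal RNA and rise at least 2-fold by stage 5, fell in 321 of 950 cases (33.8%), stable genes in 247 of 1628 (15.2%) and cleared genes in 265 of 2084 (12.7%). Cleared genes rose in 548 cases (26.3%) and stable genes in 355 (21.8%). With stricter class limits 77.1% of 188 maternal-zygotic genes fell. The share of zygotic genes called lower grew with their level in the batch1 stage 5 controls: 22.2% of the group with the lowest levels fell, then 38.3%, 62.0% and 94.6% of the group with the highest, where 300 of 317 fell and 2 rose. The median log2 change in the same groups was -0.66, -1.08, -1.35 and -2.23, and the part of depth in the shares was not tested.

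Position and gene structure were described in the same way. On the X, 15.1% of tested genes fell, against 19% to 24.7% on the other chromosome arms, and within the zygotic class 43.2% fell on the X, 41.2% of 17 on chromosome 4 and 53.3% to 60.4% on the arms of chromosomes 2 and 3. Genes annotated as noncoding RNA fell in 35.2% of cases and protein-coding genes in 21.6%, but within the zygotic class the shares were 53.8% and 55.3%. Genes without introns fell in 23.6% and those with introns in 21.6%, or 55.8% and 53.6% within the zygotic class. By exon length, in 4 groups of equal size from shortest to longest, falls were 15.9%, 18.5%, 22.9% and 30.0%. Rises were 15.3%, 19.2%, 19.2% and 10.5%, lowest in the longest group. Within the zygotic class, grouped in the same way, falls were 50.6%, 46.0%, 57.8% and 62.0%, so the trend was uneven. The Spearman correlation of log2 change with exon length was -0.0983 over all genes tested. It was -0.0788 in the zygotic class and 0.00486 in the cleared class. The low share of rises among the longest genes rests on control replicate 1. Without that library the rises were 9.88% of the shortest and 22.4% of the longest genes, and the falls 17.2% and 26.7%.

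Nuclear RNA of the same knockdown gave a measurement in other libraries, from 300 embryos each. Its controls are named WT in the library names, not as a control knockdown, so the groups may differ in more than the knockdown. Libraries were scaled to ERCC transcripts, which the labels say were added for global changes in RNA. ERCC counts summed to 5689, 4386 and 1437 in Nejire replicates 1, 2 and 3, and to 1713, 1477 and 2026 in control replicates 1, 2 and 3. Nejire replicate 3 thus stood apart from its own group and near the controls, and every nuclear value below rests on these sums. Of 9295 genes 921 (9.91%) were lower and 327 (3.52%) higher in Nejire knockdown on the ERCC scale, against 2857 and 2771 with TMM. Of the 1129 genes that fell at least 2-fold in total RNA and were tested here, 672 (59.5%) were lower in nuclear RNA, or 87.5% of the 768 nuclear falls tested in both. Of the 1129, 1 was higher. On the ERCC scale, where the median over all genes was -0.29, the log2 changes of patterning genes were -3.60 for Kr, -5.77 for opa, -4.92 for tld, -6.04 for Antp and -6.68 for Doc2, all called. All 9 pair-rule genes and all 14 dorsal ectoderm genes were lower. hb (0.78, adjusted p = 0.743), nullo (0.72, adjusted p = 0.706) and sisA (0.14, adjusted p = 0.966) were not called here either. en, which was not called in total RNA, was lower in nuclear RNA (-5.50, adjusted p = 8.2e-07). The nuclear counts move with single libraries: 6660 genes were lower without Nejire replicate 3, 522 without Nejire replicate 2, 670 without Nejire replicate 1, and 452, 449 and 500 without control replicates 1, 2 and 3.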

How the data were processed

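Total RNA was sequenced from 20 embryos per library and nuclear RNA from 300. The values are the authors' own read counts for each FlyBase gene, deposited with no normalisation. Per the submitters' processing notes, bcl2fastq 2.20.0.422 made the read files and dm6 was the build. How reads were aligned, assigned and oriented is not given in the sources used here, so reads of a gene and of an overlapping or antisense gene cannot be told apart. Of 17753 genes 17626 (99.3%) matched Ensembl release 115, the source of coordinates and exon lengths.

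Low genes were removed by filterByExpr (minimum count 10, total 15), and the rest were scaled by TMM and tested with the quasi-likelihood F test of edgeR 4.0.16 in R 4.3.3, at an adjusted p under 0.05 (Benjamini-Hochberg over all genes tested). The control, Nejire, Gcn5, HDAC1 and HDAC3 groups of a stage were fitted together, both stages together for the interaction, and nuclear groups alone, with library sizes set to their ERCC sums. Fold changes are log2 of Nejire knockdown over control, and the standard error is the fold change divided by the root of F. The labels do not say whether replicates came from separate crosses, so p-values measure the spread between these samples, which may be technical. Depth per library ran from 2.45 to 40.4 M counts for total RNA, and intervals on counts cover counting error only.

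Genes named were nej, a panel, up to 3 genes per list and direction, the 10 largest falls and rises and the 5 largest of the other contrasts, limited to protein-coding genes whose higher group averaged 5 CPM or more and whose libraries did not overlap between groups. Other list members are given by value. Members and lists were chosen with earlier results of these data known. Simulated data of 8236 genes held 200 genes with known changes, 50 for each size and direction. Stage 5 calls recovered 86% of the falls and 98% of the rises of 2 log2 units. For changes of 1 unit they recovered 64% and 76%. Recovery with many more changes and more falls than rises, as in the real data, was not tested. Alternatives were RLE scaling, scaling to stable genes, no filter, DESeq2 1.42.0, the 2 groups alone, a replicate block, stricter classes and each library left out. The batch1 controls as a second reference were chosen after seeing the data. No promoter or protein sequences were used here.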

Additional observations from a re-analysis of the deposited data

Results flagged for a closer look

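The effect of the knockdown differed between stage 5 and stage 2, by a test of the difference itself, in 975 genes with a lower and 770 with a higher effect at stage 5. Among genes with at least 5 CPM in controls at both stages, the stage 5 effect minus the stage 2 effect was -3.33 for btsz (adjusted p = 9.1e-12), -3.10 for Tollo (adjusted p = 6.7e-13), -3.07 for Pino (adjusted p = 2e-12), -2.94 for l(3)neo38 (adjusted p = 1.4e-10) and -2.86 for bbg (adjusted p = 2.2e-11), on the log2 scale by edgeR. In the other direction it was 1.68 for Evi5 (adjusted p = 0.0005), 1.63 for cib (adjusted p = 1.4e-06), 1.60 for Mov10 (adjusted p = 0.0024), 1.55 for corolla (adjusted p = 0.0022) and 1.48 for Hsp68 (adjusted p = 0.00017). corolla, of the synaptonemal complex, was lower at both stages, by 0.65 on the log2 scale at stage 5 and 2.18 at stage 2, and Hsp68 was higher at stage 5 (0.86) but lower at stage 2 (-0.62).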

How the results depend on the processing

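At stage 5 the falls numbered 1601 to 1797 and the rises 983 to 1516 when 1 library was left out. The replicate block gave 1722 falls, 1707 of them among the 1800, and 1223 rises, and ended the calls of 3 of the 213 named genes, Hsp70Ba, MED1 and Mef2. The replicate numbers do not pair the samples: the deviations of same-numbered libraries correlated at -0.204, -0.173 and -0.046. Scaling to the stable class gave 786 rises. With the batch1 controls, chosen after seeing the data, 2843 genes fell and 2711 rose, and 3 named genes turned their direction, Hsp83 (0.30), Xrp1 (-1.07) and nullo (4.66). They ended 5 named calls, of scw (-0.35), zen (-0.32), slam (-0.27), tra (0.34) and Septin1 (0.11), and brought 7 past the threshold, cad (2.37), hb (1.17), HDAC1 (-0.18), Trl (-0.75), en (-3.33), sim (-2.91) and tin (-2.63). Under the other settings no called gene was called in the opposite direction. At stage 2, fitting the 2 groups alone gave 165 falls and 177 rises, and leaving out 1 library 232 to 382 falls and 244 to 408 rises. For the interaction, lower effects numbered 1575 with stable class scaling and 1721 with DESeq2, and 840 to 976 with 1 library left out. Higher effects numbered 331 with RLE scaling, 283 with stable class scaling, 445 without a filter and 402 with DESeq2, and 541 to 1090 with 1 library left out. For nuclear RNA, falls numbered 2857 with TMM, 609 with the replicate block and 449 to 6660 with 1 library left out, and rises 2771, 107 and 93 to 769. The cause was not tested. Of the 6 libraries control replicate 3 has the least depth, 2.50 M counts, and without it 1735 genes fell and 1050 rose. What depth does to calls of low genes was not tested further. A promoter motif search was planned and not run.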
